A study of Rattus norvegicus with 44 samples.

Results

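The genes described here encode proteins of the extracellular matrix, the integrins that bind it and the metalloproteinases that cut it, measured in rat liver after dosing with compound R1 or R2. They were chosen by name. A probe set, the group of short probes that reads 1 transcript on the array, was included when its annotation gave a single gene symbol that began with Col and a digit, with Lama, Lamb or Lamc and a digit, or with Mmp, Timp, Itga, Itgb or Adam. The symbols Fn1, Sparc, Dcn, Bgn, Lum, Vim, Des and Acta2 were added. The rule found 93 probe sets of 65 genes among the 8740 probe sets of the array that are not controls. Of these, 68 probe sets of 45 genes were bright enough to be tested, and 25 probe sets stayed below the signal needed for a test in every group. The 20 genes with no tested probe set were Col2a1, Col4a3, Col9a1, Col11a1, Lama1, Lama2, Lama5, Itgam, Itgav, Mmp8, Mmp12, Mmp13, Mmp16, Des and Adam2, Adam3a, Adam4, Adam5, Adam6 and Adam18.

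In liver, the matrix is made mainly by stellate cells and portal fibroblasts, while hepatocytes secrete fibronectin into the plasma. Fibrillar collagens, laminins and fibronectin form the scaffold, small proteoglycans such as biglycan and decorin bind to it, and integrins, each a pair of an alpha and a beta chain, anchor cells in it. Matrix metalloproteinases and ADAM proteases cut matrix and cell-surface proteins, and the Timp proteins inhibit them. These genes are best known in the liver for their rise in fibrosis.

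The rats were male Wistar animals aged 8 weeks. They were given R1, R2 or the vehicle, a citric acid buffer, by gavage every day, and the liver was taken 24 h after the final dose. Study 1 was sampled at 24 h and had 3 vehicle arrays with 4, 3 and 3 arrays at 10, 30 and 100 mg/kg/day of R1. Study 4, also sampled at 24 h, had 4 vehicle arrays and 5 arrays at 300 mg/kg/day of R2. Study 2 was sampled at 336 h and had 4 vehicle arrays with 5 and 4 arrays at 20 and 100 mg/kg/day of R1, and study 3, at 336 h, had 5 vehicle arrays and 4 arrays at 30 mg/kg/day of R1. R1 and R2 are known here by code name only. Replicates carry a number but no label ties a number to an animal, so a p-value here reflects sample-to-sample spread, part of which may be technical. RNA came from whole tissue, so fewer cells of a type and less RNA per cell cannot be told apart.

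In the R2 group, replicates 1 and 2 stood apart from the rest. They correlated with each other at 0.953 and with replicates 3 to 5 at 0.924 to 0.944, while replicates 3 to 5 correlated among themselves at 0.956 to 0.972. The R2 calls of probe sets and the main R2 counts are therefore given with and without them. Some R2 values that were not called are given with all arrays only. The tissue label was checked with 11 hepatocyte genes, whose summed signal lay between 55690 and 73200 on every array. Des, a defining marker of stellate cells, was too dim to be tested, with a highest group mean of 4.21.

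Values below are array signals for single samples, and differences are log2 fold changes ± SE on log2(signal + 2.89), which understates the change of dim genes. A probe set was called when limma's adjusted p, corrected over all 6361 probe sets tested in that comparison, was under 0.05. At 24 h R1 moved few of these genes. At 10 mg/kg/day 1 of the 68 probe sets was called, lower, which is 1.47% against 1.24% of all probe sets tested, of which 0.204% were lower. The dose of 30 mg/kg/day again gave 1 of 68, lower, against 1.73% of all (0.252% lower). At 100 mg/kg/day 1 was higher and 1 lower, 2.94% of the 68 against 6.4% of all (3.96% higher and 2.44% lower).

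With R2 at 300 mg/kg/day for 24 h, 2 probe sets were called higher and 4 lower, 8.82% against 15.3% of all (7.44% higher and 7.88% lower). Without R2 replicates 1 and 2 the call count fell to 2, with 1 probe set higher and 1 lower, 2.94% against 10.4% of all (5.49% higher and 4.92% lower).

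After 336 h of R1, every called probe set was lower than vehicle. At 20 mg/kg/day 3 of 68 were called, 4.41% against 4.43% of all probe sets (2.55% higher and 1.89% lower). At 100 mg/kg/day 6 were called, 8.82% against 10.3% of all (5.11% higher and 5.2% lower). In study 3, at 30 mg/kg/day, 7 were called, 10.3% against 11.3% of all (5.27% higher and 6.01% lower). Set against calls in either direction, these shares lie near the background. They lie above the shares of all probe sets called lower, and whether by more than chance gives was not tested. The 336 h doses of 20 and 100 mg/kg/day share their 4 vehicle arrays.

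Beyond the calls, most of the tested probe sets lay below vehicle at 336 h. Of the 68, 48 had a log2 fold change below 0 at 20 mg/kg/day, 49 at 100 and 45 at 30, which is 70.6%, 72.1% and 66.2% against 51.5%, 51.8% and 51.2% of all probe sets tested. Their median log2 fold changes were -0.19, -0.17 and -0.22, where the medians of all probe sets were -0.01, -0.02 and -0.01. At 24 h of R1 40 of 68, 58.8%, were below 0 at each of the doses, which share their 3 vehicle arrays, against 52.2%, 52.7% and 53.4% of all at 10, 30 and 100 mg/kg/day. With R2 51 of 68, 75.0%, were below 0 against 54.1% of all, and the median was -0.27. Without replicates 1 and 2 the count was again 51, against 52.2% of all, and the median was -0.21. Vehicle groups differed in the same measure: 41 of 68, 60.3%, were below 0 in the study 3 vehicles against those of study 2 (48.8% of all), with a median of -0.15.

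**Figure D1:**
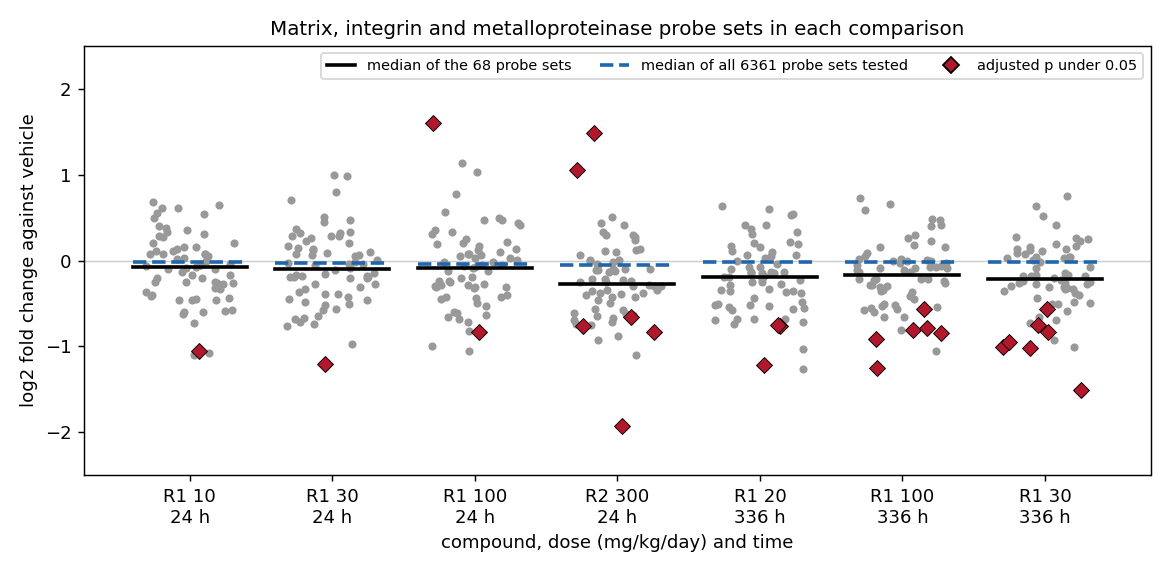
Each point is 1 of the 68 tested probe sets, placed by its log2 fold change against the vehicle of the same study, for the 7 compound and dose groups on the horizontal axis. Solid bars mark the median of the 68 and dashed bars the median of all 6361 probe sets tested; red diamonds are probe sets with an adjusted p under 0.05. All diamonds in the 336 h groups lie below 0.

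**Figure D2:**
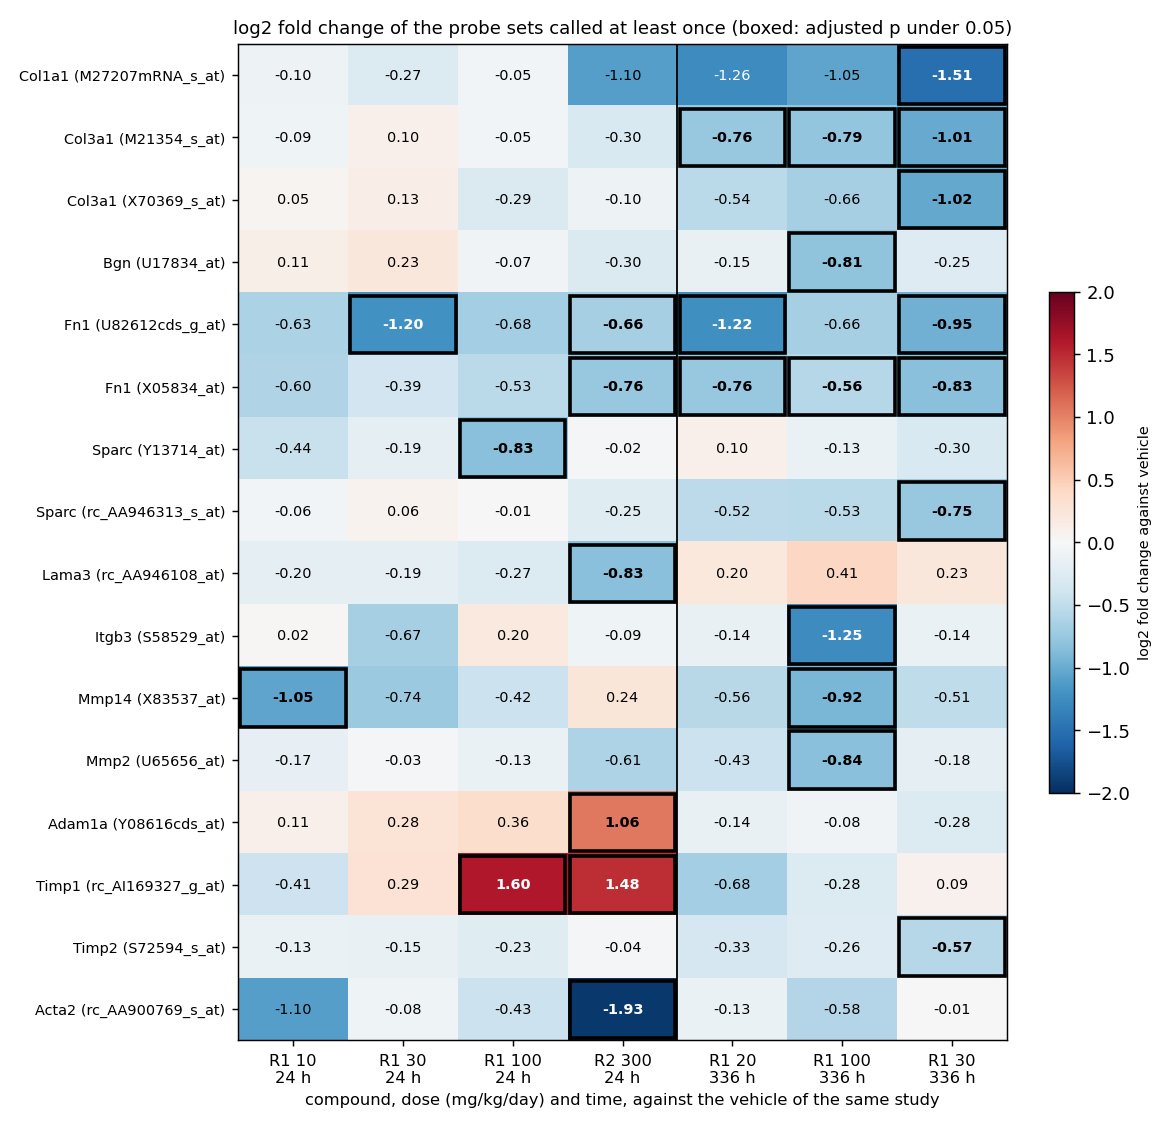
Log2 fold change against vehicle for the 16 probe sets called in at least 1 of the 7 comparisons, with the value printed in each cell and called cells boxed. Red is higher and blue lower than vehicle; Col3a1 (M21354_s_at) and Fn1 (X05834_at) are boxed in each of the 336 h columns.

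Among the fibrillar collagens, Col3a1 was called lower in each 336 h group of R1 and Col1a1 at 30 mg/kg/day, while Col1a2, Col5a1 and Col5a2 were not called. Of their 9 tested probe sets, 1, 1 and 3 were called lower at 336 h at 20, 100 and 30 mg/kg/day and none higher. These are 11.1%, 11.1% and 33.3%, against the 4.43%, 10.3% and 11.3% of all probe sets called in either direction. The shares of all called lower were 1.89%, 5.2% and 6.01%. The median log2 fold changes of the 9 were -0.54, -0.45 and -0.51. At 24 h of R1 none was called, and the medians lay between -0.09 and 0.13. Col3a1 encodes the chain of type III collagen, a main fibre of the liver's reticular network. In study 2 its probe set M21354_s_at read 93.2, 112, 92.6 and 77.7 in the vehicle samples. It read 53.8, 51.9, 51.0, 57.9 and 55.5 at 20 mg/kg/day, and 45.4, 59.7, 57.2 and 49.4 at 100. Every treated sample was below every vehicle sample. In study 3 the vehicle samples read 159, 139, 87.4, 107 and 69.7 and those at 30 mg/kg/day 64.4, 66.9, 40.2 and 41.9, again with no overlap, although the vehicle samples spread widely.

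The log2 fold changes of this probe set were -0.76 ± 0.23 (adjusted p = 0.0494), -0.79 ± 0.24 (0.0268) and -1.01 ± 0.23 (0.00182) at 20, 100 and 30 mg/kg/day. The other Col3a1 probe set, X70369_s_at, was called at 30 mg/kg/day (-1.02 ± 0.24, adjusted p = 0.00261), where the lowest vehicle sample (165) lay among the treated ones (186, 166, 117 and 134). It stood at -0.54 and -0.66 at 20 and 100 mg/kg/day, with adjusted p of 0.248 and 0.0973. The Col3a1 call at 20 mg/kg/day was lost in each of the 9 fits that left out 1 of its arrays (adjusted p up to 0.172), with the larger offset, and without the filter or the trend, and that at 100 was kept in 3 of 8 (up to 0.0995 when lost, which happened without vehicle replicates 1, 2 or 3 or treated replicates 1 or 4). The mean of both probe sets was lower by -0.65 at 20 mg/kg/day (adjusted p = 0.0797). Both kept their call at 30 mg/kg/day in all such fits.

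Col1a1 encodes the alpha-1 chain of type I collagen, the bulk of scar collagen. Its brightest probe set, M27207mRNA_s_at, read 73.1, 200, 57.7, 77.2 and 36.1 in the vehicle samples of study 3 and 36.6, 25.0, 20.7 and 19.2 at 30 mg/kg/day of R1. The treated samples were the lowest apart from 1 that lay just above the lowest vehicle sample. Col1a1 fell there by 1.51 ± 0.42 on the log2 scale (adjusted p = 0.0122), and without vehicle replicate 2 the adjusted p was 0.0704. In study 2 it read 135, 156, 181 and 101 with vehicle, 72.6, 71.9, 27.6, 74.5 and 54.1 at 20 mg/kg/day and 69.9, 54.3, 107 and 47.0 at 100. All samples at 20 were below vehicle, and 1 at 100 was above the lowest vehicle sample. The differences, -1.26 ± 0.42 and -1.05 ± 0.44, had adjusted p of 0.0779 and 0.14, and 0.0195 and 0.0381 when study 2 was fitted alone. The other 3 Col1a1 probe sets moved less, between -0.66 and -0.33 at 30 mg/kg/day, and none was called; the mean over all 4 fell by 0.71 (adjusted p = 0.0213).

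Col1a2, the partner chain of type I collagen, was at -0.73, -0.54 and -0.51 at 20, 100 and 30 mg/kg/day after 336 h, with adjusted p of 0.188, 0.343 and 0.35. Its samples did not overlap vehicle in study 2, where vehicle read 72.1 to 104 and the treated groups 40.5 to 58.0 and 38.0 to 66.6. Col5a1 and Col5a2, the chains of type V collagen that set fibril width, were not called in any of the 7 comparisons. At 24 h with R1, Col1a1 lay between -0.27 and -0.05 and Col3a1 between -0.29 and 0.13. With R2 Col1a1 was at -1.10 ± 0.42, short of the threshold (adjusted p = 0.0665), with samples at 47.4, 16.5, 37.4, 89.2 and 113 against 52.3, 140, 87.0 and 232 in vehicle. Without R2 replicates 1 and 2 it was at -0.59 ± 0.44 (0.512).

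**Figure D3:**
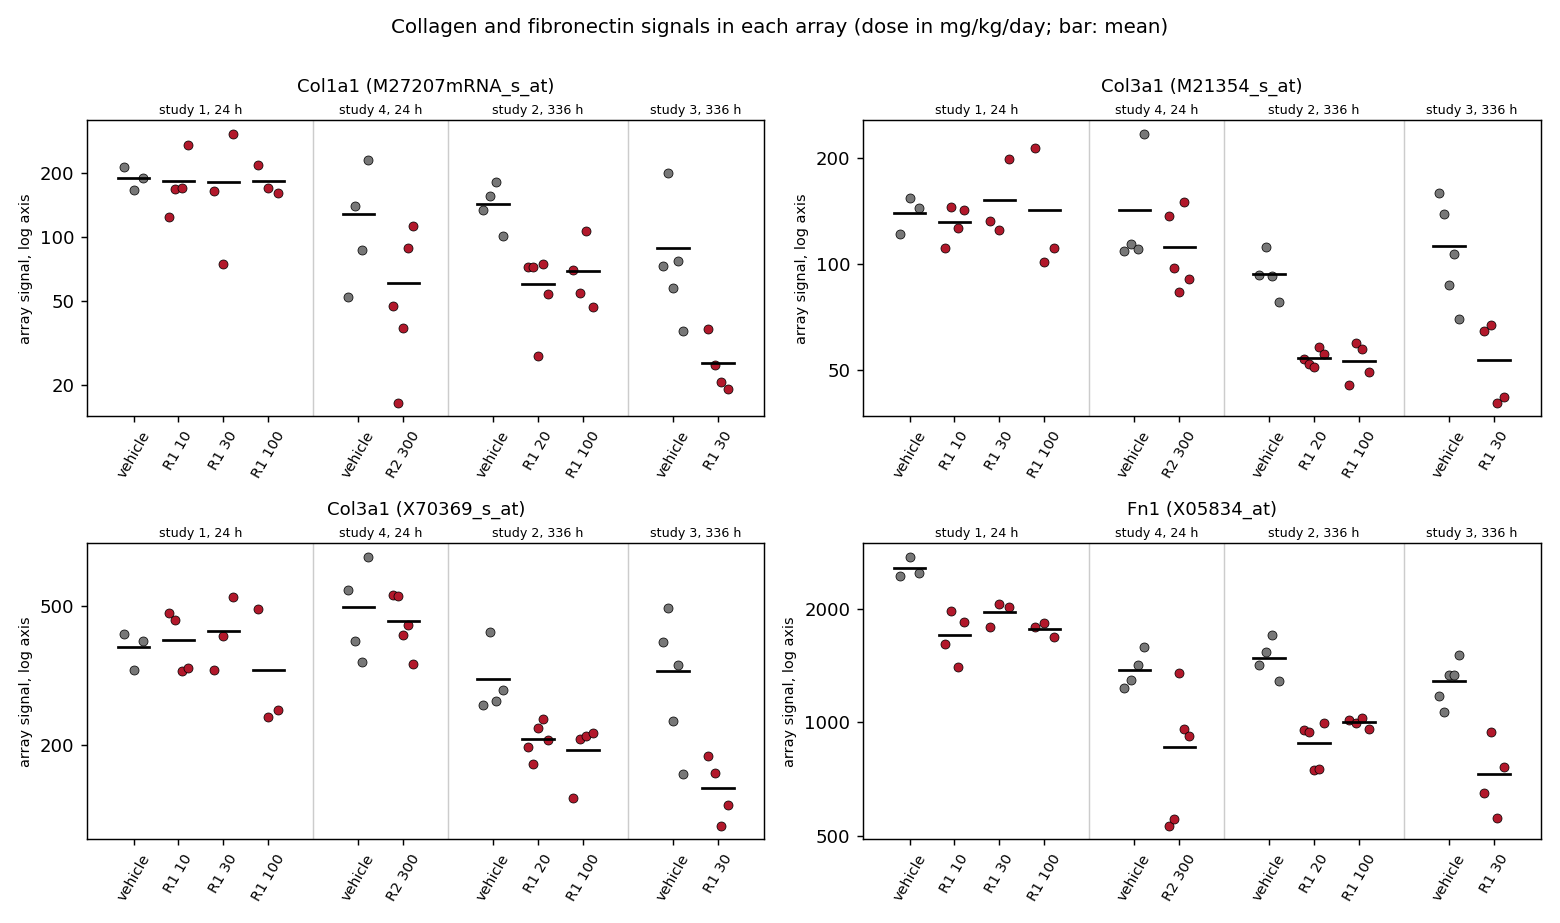
Signal of each array for Col1a1, for each of the Col3a1 probe sets and for Fn1, on log axes, by study and dose in mg/kg/day; grey points are vehicle, red points treated samples and bars group means. In both 336 h studies the treated points sit low, and in Fn1 the treated points lie below all vehicle points of their study in every R1 group.

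The remaining collagens were dim and none was called. Their 6 tested probe sets, 1 each for Col4a5, Col8a1, Col10a1, Col12a1, Col15a1 and Col26a1, ranged from -0.71 (Col8a1 at 20 mg/kg/day) to 0.75 (Col4a5, a basement membrane chain, at 30) after 336 h. With R2 all 6 were below 0, with a median of -0.63, and Col15a1 was furthest at -0.87. Without R2 replicates 1 and 2 all 6 were again below 0, with a median of -0.29 and Col15a1 at -0.37. Col8a1 was then furthest, at -0.97 where it was -0.70 with all arrays.

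Fibronectin, Fn1, was the gene called most often. Its brightest probe set, X05834_at, was called lower in 4 of the 7 comparisons: with R2 and in each 336 h group. In study 2 it read 1417, 1533, 1704 and 1284 with vehicle, 951, 944, 749, 753 and 995 at 20 mg/kg/day, and 1016, 995, 1025 and 960 at 100. In study 3 it read 1177, 1066, 1335, 1335 and 1507 with vehicle and 650, 940, 558 and 762 at 30 mg/kg/day. The groups did not overlap in either study. The falls were -0.76 ± 0.18 (adjusted p = 0.00435), -0.56 ± 0.18 (0.041) and -0.83 ± 0.18 (6.6e-04).

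The Fn1 call at 20 and at 30 mg/kg/day was kept in every fit without 1 array. At 100 mg/kg/day it was kept only without vehicle replicate 4, and the adjusted p was up to 0.135 in the other 7 fits; it was also lost without the filter or the trend. At 24 h in study 1 the same probe set read 2442, 2749 and 2493 with vehicle. R1 gave 1611, 1968, 1402 and 1841 at 10 mg/kg/day, 1793, 2059 and 2018 at 30, and 1793, 1834 and 1684 at 100. All 10 treated samples were below the 3 vehicle samples, but the adjusted p were 0.194, 0.555 and 0.15. The log2 fold changes were -0.60, -0.39 and -0.53, and when study 1 was fitted alone, 10 and 100 mg/kg/day passed (0.0455 and 0.0404).

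With R2, the Fn1 samples at X05834_at read 531, 555, 1347, 960 and 917 for replicates 1 to 5, against 1229, 1292, 1417 and 1580 in vehicle. The groups overlapped through replicate 3. The difference was -0.76 ± 0.18 (adjusted p = 0.00154), and without replicates 1 and 2 it was -0.37 ± 0.16 (0.137). When study 4 was fitted alone the adjusted p was 0.0741.

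A second Fn1 probe set, U82612cds_g_at, was called lower in 4 comparisons: R1 at 30 mg/kg/day for 24 h (-1.20 ± 0.28, adjusted p = 0.00817), R2 (-0.66 ± 0.23, 0.0415), and R1 at 20 and 30 mg/kg/day for 336 h (-1.22 ± 0.23, 3.1e-04, and -0.95 ± 0.23, 0.0031). At 20 mg/kg/day it read 35.7, 41.1, 28.3, 28.8 and 41.2 against 84.1, 79.6, 76.7 and 98.6 with vehicle, a clear gap. At 24 h its call rested on few arrays: it was kept in 2 of 6 fits, and was lost without vehicle replicates 2 or 3 or treated replicates 1 or 2 (adjusted p up to 0.102) and when study 1 was fitted alone (0.057); the mean over the Fn1 probe sets was then -0.74 (0.0741). With R2 it was kept in 3 of 9 fits (up to 0.101) and was lost without the filter or the trend, and without replicates 1 and 2 it was -0.82 ± 0.26 (0.0328). The other 3 Fn1 probe sets were not called against vehicle. Averaged over its 5 probe sets, Fn1 was lower at 336 h by -0.64, -0.38 and -0.69 at 20, 100 and 30 mg/kg/day (adjusted p = 0.0213, 0.232 and 0.00512).

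Biglycan, decorin and lumican are small proteoglycans that bind collagen fibrils. Bgn was called at the highest 336 h dose: its probe set U17834_at read 167, 207, 242 and 164 with vehicle and 153, 90.5, 111 and 89.9 at 100 mg/kg/day, with no overlap, while 20 mg/kg/day read 192, 153, 236, 137 and 166. The difference at 100 was -0.81 ± 0.21 (adjusted p = 0.00521) and held in all 8 fits without 1 array. The other Bgn probe set was at -0.81 too (adjusted p = 0.0596). Bgn in study 3, at 30 mg/kg/day, was at -0.25 and was not called. Dcn and Lum were not called in any of the 7 comparisons. Dcn's brightest probe set ranged from -0.36 to 0.62, and Lum, which is dim, from -0.48 to 0.18.

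Sparc, a collagen-binding glycoprotein secreted by matrix-producing cells, gave different answers from its 4 tested probe sets. Y13714_at was called lower at 100 mg/kg/day of R1 for 24 h, with 68.5, 97.1 and 72.9 against 128, 129 and 174 in vehicle (-0.83 ± 0.26, adjusted p = 0.0456). The samples did not overlap, but the call was kept only without treated replicate 2, 1 of 6 fits, with an adjusted p of up to 0.192 otherwise, and it was lost without the filter or the trend; the mean over the 4 probe sets was -0.34 (0.337). Probe set rc_AA946313_s_at was called lower at 30 mg/kg/day for 336 h, with 48.5, 38.7, 34.6 and 30.5 against 102, 68.7, 51.8, 64.6 and 50.2 (-0.75 ± 0.22, adjusted p = 0.0206). That call was lost without vehicle replicate 1 or treated replicates 3 or 4 (up to 0.0949), and the mean over the probe sets was -0.34 (0.148). The brightest Sparc probe set, rc_AA892248_at, was between 0.01 and 0.30 in all 7 comparisons and was not called.

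Among the matrix metalloproteinases, Mmp14 and Mmp2 were called and 6 other tested genes, Mmp3, Mmp7, Mmp9, Mmp10, Mmp11 and Mmp23, were not. Mmp14 encodes a membrane-bound enzyme that cuts collagen and activates the gelatinase encoded by Mmp2. In study 2 Mmp14 read 142, 211, 181 and 178 with vehicle, 120, 103, 92.2, 147 and 140 at 20 mg/kg/day, and 85.5, 108, 106 and 73.4 at 100. The highest dose lay wholly below vehicle. It fell there by 0.92 ± 0.21 (adjusted p = 0.00146), a call kept in all fits without 1 array, and was at -0.56 ± 0.20 at 20 mg/kg/day (0.105). In study 3 all 4 samples at 30 mg/kg/day (158, 184, 138 and 156) were below the 5 of vehicle (213 to 235), and the difference of -0.51 ± 0.20 had an adjusted p of 0.0948, or 0.0216 when study 3 was fitted alone.

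At 24 h Mmp14 was called at the lowest dose. It read 67.8, 69.1, 64.2 and 109 at 10 mg/kg/day against 183, 166 and 135 with vehicle, then 133, 53.2 and 119 at 30 and 137, 119 and 103 at 100. The differences were -1.05 ± 0.22 (adjusted p = 0.00549), -0.74 ± 0.24 (0.122) and -0.42 ± 0.24 (0.39), so the difference was largest at the lowest dose, although 100 against 10 mg/kg/day was not called (0.63 ± 0.22, adjusted p = 0.113). Without vehicle replicate 1 the call at 10 mg/kg/day was lost (0.0697), as it was when study 1 was fitted alone (0.0797). With R2 Mmp14 was at 0.24 and was not called.

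Mmp2, at its brighter probe set U65656_at, read 27.4, 28.9, 17.1 and 17.2 with vehicle in study 2, 15.3, 16.8, 11.97, 15.9 and 18.6 at 20 mg/kg/day and 13.3, 9.47, 11.9 and 9.84 at 100. The highest dose lay just below the lowest vehicle sample (-0.84 ± 0.27, adjusted p = 0.0387). The call was lost without vehicle replicates 1 or 2 or treated replicates 2, 3 or 4 (up to 0.144) and without the filter, and the second Mmp2 probe set stood at 0.41, so that the mean of both was -0.22 (adjusted p = 0.731). Mmp9, a gelatinase of neutrophils and macrophages, stayed dim, with group means of 1.89 to 10.2.

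**Figure D4:**
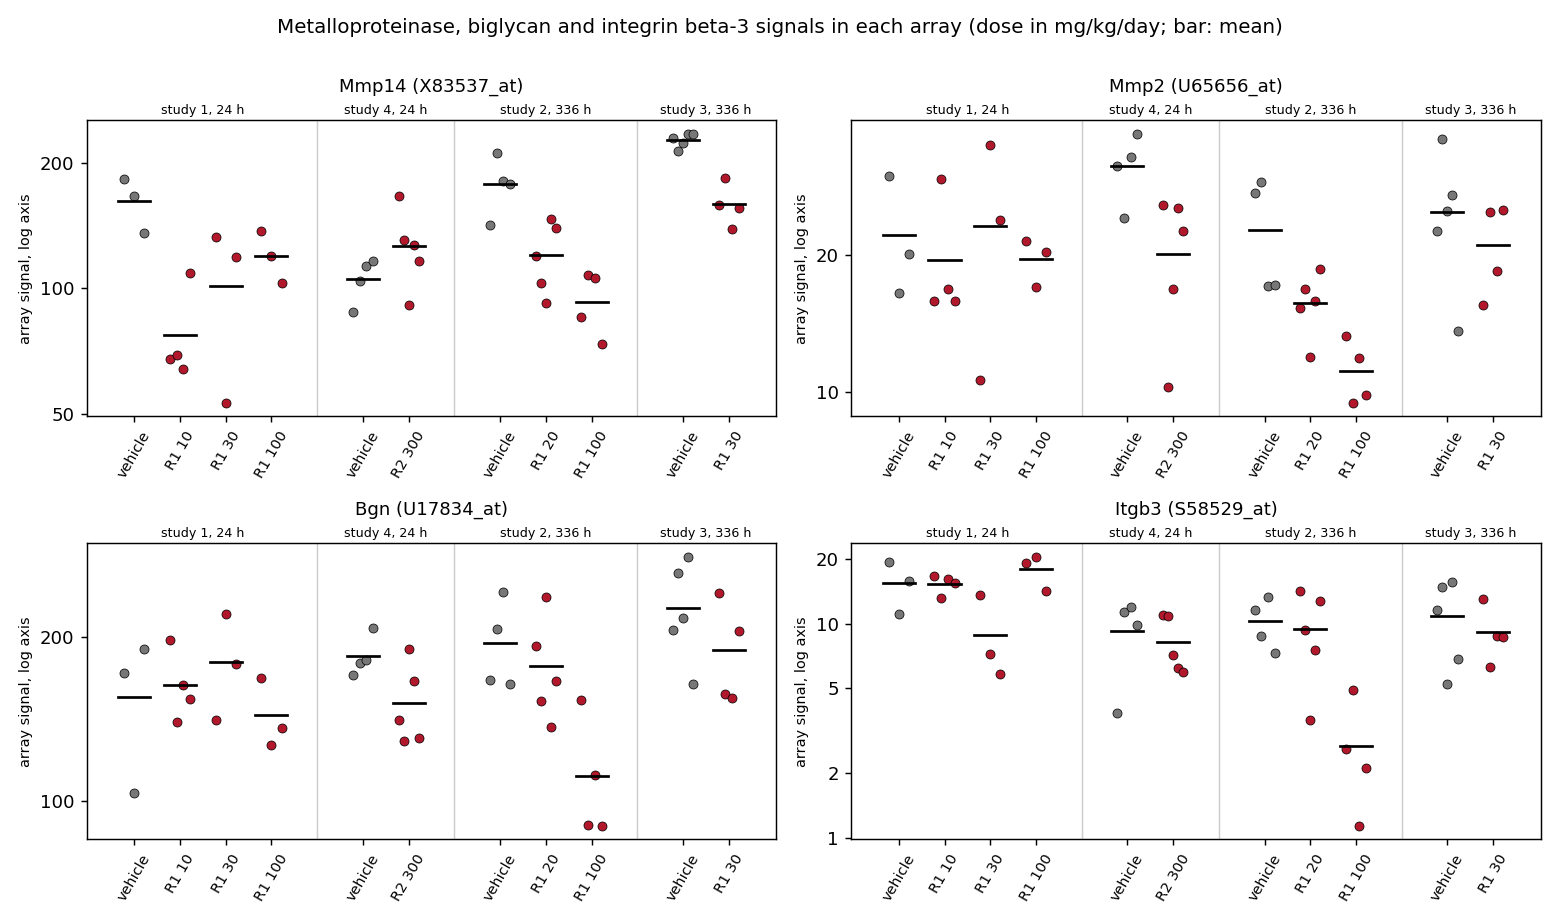
Signal of each array for Mmp14, Mmp2, Bgn and Itgb3 on log axes, by study and dose in mg/kg/day; grey points are vehicle, red points treated samples and bars group means. In study 2 all 4 samples at 100 mg/kg/day lie below the vehicle samples in each panel, and those at 20 mg/kg/day overlap both of the other study 2 groups.

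The Timp genes encode the inhibitors of these proteases. Timp1, which is induced in injured liver, was the only member called higher with R1. Its probe set rc_AI169327_g_at read 23.8, 28.1 and 29.1 at 100 mg/kg/day for 24 h against 10.8, 1.51 and 12.8 with vehicle, 3.13, 4.00, 2.90 and 9.34 at 10 and 2.82, 10.5 and 19.5 at 30. The top dose lay above all other samples of study 1. With R2 it read 32.5, 17.9, 36.6, 25.7 and 30.5 against 6.05, 8.23, 7.22 and 11.8 with vehicle, also with no overlap.

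Timp1 rose by 1.60 ± 0.51 with R1 at 100 mg/kg/day (adjusted p = 0.0485) and by 1.48 ± 0.42 with R2 (0.0105). The R2 call held in all 9 fits without 1 array and without replicates 1 and 2 together (1.61 ± 0.48, adjusted p = 0.0235). The R1 call was kept in 1 of 6 fits, that without vehicle replicate 3, and the adjusted p was up to 0.391 in the others; it was also lost with the smaller offset, without the filter or the trend, and with study 1 fitted alone (0.0779). The brighter Timp1 probe set, rc_AI169327_at, was at 0.47 and 0.28 in these comparisons and was not called, while the mean of both probe sets was higher by 1.04 and 0.88 (adjusted p = 0.0322 and 0.0123). At 336 h Timp1 was not called. There the same probe set read 16.8 to 31.1 with vehicle in study 2, 7.42 to 19.5 at 20 mg/kg/day and 6.20 to 37.6 at 100.

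Timp2 was called lower at 30 mg/kg/day for 336 h. It read 66.9, 43.0, 61.0 and 65.8 against 93.1, 102, 75.2, 99.1 and 74.0 with vehicle, with no overlap. The difference was -0.57 ± 0.17 (adjusted p = 0.0191), lost without vehicle replicates 2 or 4 or treated replicate 2 (up to 0.123) and when study 3 was fitted alone (0.0601). In study 2 it was at -0.33 and -0.26 at 20 and 100 mg/kg/day. Timp3, an inhibitor bound to the matrix, was dim and not called, with log2 fold changes from -0.58 to -0.11.

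The bases just before the start of Timp1, Timp2 and Sparc are shown because these are the genes called with R1 for which a promoter was at hand. Timp1 was called higher at 24 h and Timp2 lower at 336 h. Sparc was called lower at both times, but at a different probe set each time. The mean over the Sparc probe sets was not called at either time. RefSeq promoters on the rat build GRCr8 were matched for 44 of the 65 genes. Each line gives the 250 bases before the annotated start, 5′ to 3′ on the gene's strand. Capitals mark a GC box (GGGCGG on either strand) or, in Sparc, CAGACA on the opposite strand, the core of a Smad site. The windows lie at chrX:3771123-3771372, chr10:104089215-104089464 and chr10:40038817-40039066, all on the minus strand.
Timp1: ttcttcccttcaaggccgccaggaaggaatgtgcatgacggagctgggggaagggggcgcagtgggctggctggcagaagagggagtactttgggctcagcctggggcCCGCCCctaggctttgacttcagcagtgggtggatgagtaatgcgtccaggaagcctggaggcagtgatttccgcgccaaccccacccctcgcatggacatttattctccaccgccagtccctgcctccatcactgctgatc
Timp2: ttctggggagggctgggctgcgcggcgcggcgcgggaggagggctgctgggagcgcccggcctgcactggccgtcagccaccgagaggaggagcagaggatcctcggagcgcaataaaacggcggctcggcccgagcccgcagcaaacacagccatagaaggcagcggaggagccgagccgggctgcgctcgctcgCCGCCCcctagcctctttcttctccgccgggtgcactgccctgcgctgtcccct
Sparc: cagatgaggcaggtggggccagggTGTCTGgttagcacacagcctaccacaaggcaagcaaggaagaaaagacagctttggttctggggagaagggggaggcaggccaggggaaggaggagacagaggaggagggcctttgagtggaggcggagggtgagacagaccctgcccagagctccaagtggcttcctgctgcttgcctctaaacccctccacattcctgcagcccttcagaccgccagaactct
The GC box lies 142 to 137 bases before the start in Timp1 and 54 to 49 in Timp2, on the opposite strand in both. The CAGACA match of Sparc lies 226 to 221 bases before it. GGGCGG occurs in 30.5% of the 33469 rat windows of this length and in 20 of the 44 matched genes, CAGACA in 17.2% and in 10 of 44. TGANTCA, the AP-1 motif, occurs in 6.34% of windows and 6 of 44 genes, TATAAA in 12.9% and 10, and CCAAT in 34% and 10, each sought on both strands; none of these letters is in the 3 windows shown. The matches are descriptions of sequence.

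**Figure D5:**
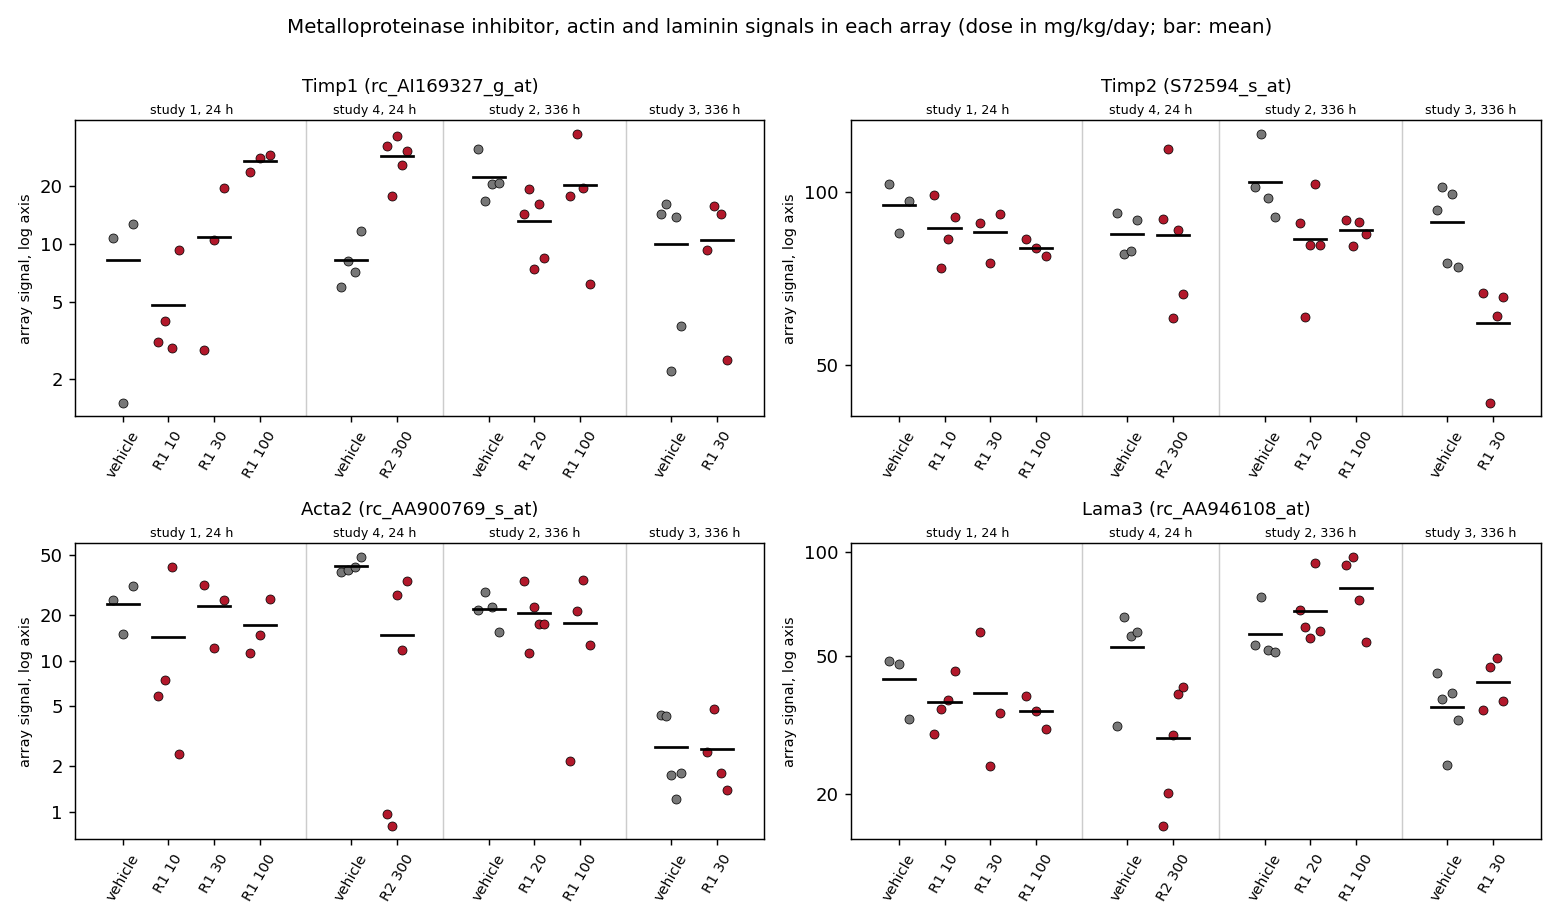
Signal of each array for Timp1, Timp2, Acta2 and Lama3 on log axes, by study and dose in mg/kg/day; grey points are vehicle, red points treated samples and bars group means. Timp1 is high in all 3 samples at 100 mg/kg/day of R1 for 24 h and all 5 R2 samples; in Acta2 the 2 lowest R2 points are replicates 1 and 2.

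Of 7 tested alpha-chain probe sets of the integrins none was called in the 7 comparisons, and of 5 beta-chain probe sets 1 was, at 100 mg/kg/day for 336 h (20.0%, against 10.3% of all). An unadjusted p under 0.05 was reached by 3 of the 7 alpha-chain probe sets, which cover 5 genes, at 100 mg/kg/day for 24 h. That is 42.9% against 17.3% of all. It was reached by 1 of 7 at 10 mg/kg/day for 24 h, by 1 of 7 with R2, and by none in the other comparisons against vehicle. At 100 mg/kg/day for 24 h the median log2 fold change of the alpha chains was -0.41, where that of all probe sets was -0.04. The median of the beta chains there was 0.07, with all 5 probe sets above 0. At 10 mg/kg/day for 24 h the medians were 0.07 for alpha and 0.02 for beta chains. At 30 mg/kg/day for 24 h they were -0.27 and -0.37, and with R2 -0.39 and -0.35, or -0.43 and -0.32 without replicates 1 and 2. In the 336 h groups both medians lay between -0.13 and 0.05. Itgb3, the beta chain of the vitronectin receptor and of the platelet fibrinogen receptor, read 11.6, 8.79, 13.3 and 7.30 with vehicle in study 2, 14.1, 9.36, 3.57, 7.57 and 12.7 at 20 mg/kg/day, and 2.60, 4.92, 1.14 and 2.12 at 100. The highest dose lay below all vehicle samples and overlapped with 1 sample at 20. It fell by 1.25 ± 0.31 (adjusted p = 0.00325), a call kept in all 8 fits without 1 array. In study 3 Itgb3 was at -0.14 and was not called. Itgb1, the beta chain shared by most matrix-binding integrins, ranged from -0.45 to 0.52, and Itga1, a collagen-binding alpha chain, from -0.67 to 0.20, neither called.

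Among the laminins, Lama3, a chain of epithelial basement membranes, was called lower with R2: 16.1, 20.1, 29.5, 38.7 and 40.7 against 31.5, 64.7, 57.1 and 58.5 with vehicle. The groups overlapped through vehicle replicate 1. The difference was -0.83 ± 0.24 (adjusted p = 0.0125). Without R2 replicates 1 and 2, which were its lowest samples, it was -0.48 ± 0.25 (0.273), and it was also lost without vehicle replicate 2 or R2 replicate 1 alone (up to 0.0628) and when study 4 was fitted alone (0.102). With R1 for 336 h it was at 0.20, 0.41 and 0.23. Lamb2 and Lamc1, chains of the vessel and liver basement membrane, were not called.

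The 4 tested ADAM proteases gave 1 call. Adam1a, which was dim in these livers, overlapped between the groups through R2 replicate 5 and vehicle replicate 4. With R2 it read 18.4, 11.4, 16.2, 7.18 and 6.14, against 3.96, 3.35, 2.24 and 6.25 with vehicle. It rose by 1.06 ± 0.35 (adjusted p = 0.0299), but without R2 replicates 1 and 2 it stood at 0.85 ± 0.39 (0.195), and only 3 of 9 fits without 1 array kept the call (up to 0.104); with study 4 fitted alone it was 0.0663. Adam10 and Adam17, the main shedding proteases of cell-surface proteins, were not called; after 336 h of R1 Adam10 lay between 0.41 and 0.66 and Adam17 between -0.56 and -0.32.

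Of the cytoskeletal genes of mesenchymal cells, Acta2, smooth muscle actin and a marker of activated stellate cells, was called lower with R2. Its probe set rc_AA900769_s_at read 0.96, 0.80, 27.4, 11.7 and 33.5 against 38.6, 39.6, 41.4 and 48.9 with vehicle. All R2 samples lay below vehicle, replicates 1 and 2 far below the rest. The difference was -1.93 ± 0.53 (adjusted p = 0.00818) and -0.83 ± 0.50 (0.362) without replicates 1 and 2; without replicate 2 alone the adjusted p was 0.0502, and with study 4 fitted alone 0.0607. The other 2 Acta2 probe sets were at 0.44 and -0.42 and the mean of all was -0.64 (adjusted p = 0.131). Actins share sequence, so the value for Acta2 is uncertain as to the member. With R1, Acta2 ranged from -1.10 to -0.01 and was not called. Vim, vimentin, was not called, with values from -0.40 to 0.11.

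Comparing doses directly, 1 of 68 probe sets was called between 100 and 10 mg/kg/day at 24 h, 1.47% against 3.98% of all (2.31% higher and 1.67% lower): Timp1 was higher by 2.02 ± 0.48 (adjusted p = 0.00796). Between 100 and 20 mg/kg/day at 336 h, 2 were called, 2.94% against 4.07% of all (2.09% higher and 1.98% lower). Itgb3 was lower by -1.11 ± 0.29 (adjusted p = 0.0169) and Bgn by -0.66 ± 0.20 (0.0409). The Itgb3 call was lost without replicates 1 or 5 at 20 mg/kg/day or replicate 3 at 100 (up to 0.0906), and that of Bgn in 6 of 9 such fits (up to 0.166); both were lost when study 2 was fitted alone, and that of Bgn also without the filter or the trend. Col3a1, Col1a1 and Fn1 were not called between the 336 h doses, at -0.03 ± 0.23, 0.21 ± 0.42 and 0.20 ± 0.18.

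Whether an effect of R1 differed between 336 h and 24 h was tested for the doses of 30 and 100 mg/kg/day, with studies 3 and 2 set against study 1. No member was called for either dose, with 0.959% of all probe sets called at 30 (0.503% higher and 0.456% lower) and 5.3% at 100 (2.17% higher and 3.13% lower), and 7 of the 68 had an unadjusted p under 0.05 in each. At 30 mg/kg/day the differences in effect were -1.11 ± 0.36 and -1.15 ± 0.38 for the Col3a1 probe sets (adjusted p = 0.192 for each) and -1.24 ± 0.66 for Col1a1 (0.547). At 100 mg/kg/day the difference was -1.46 ± 0.47 for Itgb3 (0.0585) and -1.88 ± 0.68 for Timp1 (0.104). So while collagens were called at 336 h and not at 24 h, a difference between the times was not shown.

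Vehicle livers of separate studies also differed, which bears on any value set across studies. Between the 24 h vehicles of studies 4 and 1, 7 of 68 probe sets were called, 10.3% against 5.64% of all (2.63% higher and 3.02% lower). Fn1 was lower in study 4 at 4 probe sets, by -2.46 ± 0.43 to -0.90 ± 0.20, and averaged over its probe sets by -1.41 (adjusted p = 8.836e-06); the call at X05831cds_at was lost without vehicle replicate 2 of study 1 or 3 of study 4 (up to 0.157). Itga1 was lower too, with 60.6, 133, 138 and 128 in study 4 and 345, 385 and 293 in study 1 (-1.60 ± 0.31, adjusted p = 5.3e-04). Itga7 (-1.38) was lower at 1 of its 3 probe sets, a call lost without vehicle replicates 1 or 3 of study 1 (up to 0.136), and Itgae (1.40) was higher, a call lost in all 7 fits without 1 array (up to 0.132), with the smaller offset and without the filter.

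Between the 336 h vehicles of studies 3 and 2, 7 of 68 were called, 10.3% against 17.8% of all (8.55% higher and 9.29% lower). Acta2 read 4.37, 4.31, 1.74, 1.21 and 1.80 in study 3 against 21.6, 28.4, 22.5 and 15.5 in study 2 (-2.18 ± 0.53, adjusted p = 0.00253). Itga1 was lower by -1.18 ± 0.27 (0.00126), and 3 Sparc probe sets by -0.92 to -0.62, of which Y13714_at kept its call in 4 of 9 fits without 1 array (up to 0.264). Lama3 was at -0.67 and Fn1 at U82612cds_g_at at 0.73, calls that were lost in 8 and 4 of 9 fits without 1 array (up to 0.172 and 0.0615). The Lama3 call was lost with the smaller offset and without the filter or the trend too. The collagens Col1a1 and Col3a1 were not called between these vehicles.

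Other genes of the pathway came from lists drawn from general knowledge, but chosen with earlier results of these data known. The shares set beside them are therefore no independent test. Their counts stand beside the same shares of all probe sets called, 1.24%, 1.73% and 6.4% at 10, 30 and 100 mg/kg/day of R1 for 24 h, 15.3% with R2, and 4.43%, 10.3% and 11.3% at 20, 100 and 30 mg/kg/day for 336 h. Each list holds few genes, so that 1 call can pass these shares. Klf6, a transcription factor gene, was among 12 tested regulators of the TGF-beta and matrix programme. It rose at 100 mg/kg/day of R1 for 24 h (1.31), with R2 (1.30) and at 30 mg/kg/day for 336 h (1.44). The list medians there were -0.03, 0.04 (0.02 without R2 replicates 1 and 2) and -0.37. Klf6 also differed between vehicles, being lower in study 3 than in study 2 by -1.49 ± 0.34 (adjusted p = 0.00116). Pdgfra, a growth factor receptor of mesenchymal cells, fell at 100 mg/kg/day for 336 h (-0.87), and the other 10 were not called in the 7 comparisons. Of 10 genes of collagen maturation, Ppib, a proline isomerase of the secretory pathway, fell at 100 mg/kg/day for 24 h (-0.83) and no other was called. Of 17 other matrix proteins, none was called at 24 h with R1 or at 20 mg/kg/day for 336 h. Mgp, which inhibits calcification, fell at 100 mg/kg/day for 336 h (-0.96). Of the 17, 4 (23.5%) fell at 30 mg/kg/day for 336 h: Efemp1 (-1.36), Mgp (-0.77), Sdc2 (-0.57) and Vtn (-0.53), the last being plasma vitronectin. With R2 Sdc2, a cell-surface proteoglycan, fell (-1.07), as did Fbln5 (-0.89), whose call was lost without R2 replicates 1 and 2 (-0.55, adjusted p = 0.384).

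Of 11 genes of plasminogen activation and other proteolysis, Mep1a, a secreted and membrane-bound metalloprotease outside the Mmp family, rose in each 336 h group, by 1.69, 1.55 and 2.64 at 20, 100 and 30 mg/kg/day, and with R2 by 0.91. At 100 mg/kg/day for 336 h Plat, tissue plasminogen activator, rose (1.14) and Ctss, a macrophage cathepsin, fell (-1.17). A2m (-1.58) and Plg (-0.57), a protease inhibitor and plasminogen, fell at 30 mg/kg/day for 336 h while Ctsl rose (0.60), and with R2 Plg fell (-0.50) and Ctsl rose (0.60). Of 17 focal adhesion genes, Cd81, a tetraspanin that binds integrins, fell at 100 mg/kg/day for 24 h (-0.72), with R2 (-1.33) and at 30 mg/kg/day for 336 h (-0.50), and Src rose at 100 mg/kg/day for 336 h (1.35). Without R2 replicates 1 and 2 the calls of Klf6, Sdc2, Mep1a, Plg, Ctsl and Cd81 held (adjusted p from 1.6e-06 to 0.0495), and Smad2, a mediator of TGF-beta signalling, and Ppib passed as well (0.77 and -0.78).

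Markers of cell types moved beside the 336 h results, and their part in those results was not tested. None of 5 tested stellate cell genes was called in the 7 comparisons, with list medians of 0.32, -0.16 and -0.26 at 20, 100 and 30 mg/kg/day. Of 8 smooth muscle and portal fibroblast genes none was called with R1, and with R2 1, Acta2 itself, was. The summed signal of the 11 such genes on the array includes Acta2, so it is not separate from that call. It was 279 to 289 in the vehicle samples of study 4 and 171 to 228 with R2, or 171 to 226 without replicates 1 and 2. In every R1 group the sum overlapped vehicle, as in study 3 with 185.9 to 249.6 against 227.5 to 317.6. Of 7 endothelial genes Kdr, a growth factor receptor, fell at 100 (-0.91) and 30 mg/kg/day (-1.19) for 336 h. The summed endothelial signal in study 3 was 101 to 124 at 30 mg/kg/day and 122 to 190 with vehicle, and in study 2 108 to 178 at 100, 129 to 166 at 20 and 169 to 206 with vehicle.

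Of 7 macrophage genes Clec4f, the defining lectin of Kupffer cells, fell in each 336 h group (-0.88, -1.31 and -0.82 at 20, 100 and 30 mg/kg/day). C1qb fell (-0.81) and Cd14 rose (0.80) at 100 mg/kg/day. The summed macrophage signal in study 3 was 775 to 1077 at 30 mg/kg/day and 1077 to 1583 with vehicle, and in study 2 833 to 1333 at 100, 866 to 1135 at 20 and 1121 to 1808 with vehicle. Of 3 red cell genes, Alas2 (-1.08) and Hbb (-0.84) fell at 30 mg/kg/day for 336 h. The summed red cell signal was 1252 to 2524 there and 2771 to 4948 with vehicle, and in study 2 it was 2593 to 5044 at 100 mg/kg/day, 4109 to 5547 at 20 and 5208 to 6958 with vehicle, which 20 mg/kg/day overlapped. Of 7 bile duct genes, Epcam rose in each 336 h group (1.07, 1.64 and 1.30) and with R2 (1.08). Krt18, which hepatocytes also make, rose at 20 and 30 mg/kg/day for 336 h (0.72 and 1.22), at 100 for 24 h (0.77) and with R2 (0.83). Cd24 rose at 30 mg/kg/day for 336 h (1.56). The list median was -0.148 at 100 mg/kg/day for 24 h, where Krt18 was the only gene called. It was 0.205, 0.342 and 0.271 at 20, 100 and 30 mg/kg/day for 336 h. With R2 it was 0.336, or 0.376 without replicates 1 and 2. The summed signal of this list includes Krt18 and is thus no measure of bile duct cells alone. In study 3 it was 1296 to 1599 at 30 mg/kg/day and 540 to 653 with vehicle. In study 2 it was 1276 to 2033 at 20 mg/kg/day, 952 to 1534 at 100 and 882 to 1235 with vehicle, so that only 100 overlapped vehicle. With R2 it was 934 to 1303, or 934 to 1235 without replicates 1 and 2, against 447 to 818 in vehicle, and Epcam, Krt18 and Cps1 kept their R2 calls without those replicates. Of 11 hepatocyte genes Fgb, Cps1, Fgg and Apoh fell and Apoa1 rose at 30 mg/kg/day for 336 h (-0.87 to -0.45, and 0.59), and Cps1 fell at 100 mg/kg/day at both times (-1.04 and -0.72) and with R2 (-1.68). Fgb fell at 20 mg/kg/day for 336 h (-0.57) and Apoa1 rose at 100 (0.43). None of the 7 leukocyte genes tested was called, and of 4 mast cell genes Mcpt1l1 rose at 10 (2.03) and 100 mg/kg/day (1.99) of R1 for 24 h.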

How the data were processed

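Liver RNA was measured on Affymetrix rat arrays, 1 array per sample. The deposited values are intensity signals that the authors made with MAS5, per the submitters' processing notes, whose version and scaling are not given in the sources used here. Sorted values were identical on all 44 arrays (largest difference 0), so the deposited signals had been quantile normalized together, and levels are relative within an array. Signal over background limits dim genes, and the number of arrays limits precision.

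Of 8799 probe sets, 59 controls were left out. By the platform annotation, 7017 of the others had 1 gene symbol, 297 had several and 1426 had none. Probe sets that carry Acta2 together with another symbol were not used. Values were put on the log2 scale after adding 2.89, their percentile 20. A probe set entered the test if at least 1 group mean was 9.17 (percentile 40) or more.

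Under R 4.3.3, limma 3.58.1 estimated 11 group means jointly, with a mean-variance trend and 33 residual degrees of freedom. P-values are 2-sided, with Benjamini-Hochberg adjustment over the 6361 probe sets within each of 13 comparisons. The procedure was tested on simulated data. Alternatives were other offsets, no filter, median scaling, no trend, a replicate block, each study alone, the mean over a gene's probe sets, and each array left out; R2 without replicates 1 and 2 was chosen after seeing the data. Each member gene is given by its brightest probe set, and others where their call differs. Genes of the other lists are given by their brightest probe set only, and whether their other probe sets differ was not examined. Named genes are all called members, up to 10 in each direction of a comparison, and a set of well-known matrix genes; genes of the other lists are named where called, up to 4 a list. The members and lists were chosen with earlier results of these data known. Replicate numbers did not pair the samples. Tables were made in Python 3.11.15 (pandas 2.3.3) and plots with matplotlib 3.10.9.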

Additional observations from a re-analysis of the deposited data

Results flagged for a closer look

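In 240 sets of 4 or 5 replicates of the named probe sets, 21 had a sample far from the others by Dixon's criterion at the 95% level. For normal values chance gives about 1 in 20, but signals were used here before the log2 step, so that rate need not hold. The 21 flags can therefore not be read as more than chance gives. Collagen accounts for 7 of them. In the study 4 vehicle group replicate 4 was highest for Col3a1 (235.1 at M21354_s_at, others 109 to 114) and Col1a2 (167.7, others 68.2 to 74.1). In the study 2 vehicle group replicate 2 was highest for Col3a1 (422.6 at X70369_s_at, others 261 to 288) and Col1a2 (103.8). In the study 3 vehicle group Col1a1 read 199.7 in replicate 2, others 36.1 to 77.2. Among treated samples Col3a1 was low in replicate 1 at 100 mg/kg/day for 336 h (140.7), and Col1a2 high in replicate 1 at 30 mg/kg/day for 336 h (51.36).

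Study 4 vehicle replicate 1 was low for Itga1 (60.64, others 128 to 138) and high for Lamc1 (54.49), and replicate 2 was high for Adam17 (21.6). In the R2 group Sparc at Y13714_at was high in replicate 4 (174.3) and Itgb1 in replicate 5 (280.1, others 106 to 123). At 10 mg/kg/day for 24 h Mmp14 (108.8, others 64.2 to 69.1) and Timp1 (9.344) were high in replicate 4, Mmp2 in replicate 2 (29.33) and Acta2 in replicate 3 (41.6, others 2.40 to 7.42). Study 2 vehicle replicate 2 was also high for Lama3 (73.97). At 20 mg/kg/day for 336 h Mmp9 was high in replicate 2 (6.751) and Sparc at rc_AA892248_at low in replicate 3 (1507, others 2749 to 3054), at 100 mg/kg/day Mmp9 was high in replicate 3 (10.38), and at 30 mg/kg/day Dcn was high in replicate 4 (86.56).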

How the results depend on the processing

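No call of a named probe set turned its direction under any alternative run. Over 2924 values of named probe sets under the alternatives, 2874 kept their side of the threshold, 38 fell below it and 12 rose past it. With 1 array left out these were 3790, 100 and 20 of 3910. These totals include values that were not called in the main run, and only called values could fall. The share that kept its side is therefore no measure of how stable the calls were. At 20 mg/kg/day for 336 h, Col3a1 (M21354_s_at) kept its call in 0 of 9 fits without 1 array. Fn1 (X05834_at) kept its call there in 9 of 9. The counts of called members stayed within 1.5 times for each 336 h dose against vehicle under all alternatives other than leaving out an array. They moved as follows. At 30 mg/kg/day for 24 h (1 called) each study alone gave 0. At 100 mg/kg/day for 24 h (2 called) no filter and no trend gave 0, and the smaller offset and the replicate block 1. With R2 (6 called) each study alone gave 2, as did leaving out replicates 1 and 2. Between 100 and 20 mg/kg/day (2 called) each study alone and the replicate block gave 0, and no filter and no trend 1. The difference between times (0 called) gave 1 at 30 mg/kg/day with the replicate block, and 1 at 100 with no trend or the smaller offset. With 1 array left out the counts ranged from 0 to 1 for each R1 dose at 24 h, 4 to 7 for R2, 2 to 2, 3 to 6 and 5 to 9 at 20, 100 and 30 mg/kg/day for 336 h, 1 to 2 and 0 to 2 between doses, 0 to 0 and 0 to 2 for the difference between times at 30 and 100, and 5 to 6 and 5 to 10 between vehicles at 24 and 336 h. By over 1.5 times, counts moved as follows. At 24 h, 10 mg/kg/day gave 0 without vehicle replicate 1, 30 gave 0 without treated replicate 2 or vehicle replicate 2 or 3, and 100 gave 0 without treated replicate 1 or 3 or vehicle replicate 1, and 1 without any other array. At 336 h, 100 mg/kg/day gave 3 without vehicle replicate 2. Its comparison with 20 gave 0 without replicate 3 at 100 or replicate 1 or 5 at 20, and 1 without replicate 2 or 4 at 100 or 3 at 20. That of 100 with 10 at 24 h gave 2 without replicate 4 at 10. The difference between times at 100 gave 2 without treated replicate 2 at 336 h and 1 without vehicle replicate 3 or 4 of study 2. With the mean over a gene's probe sets, genes called higher and lower were 0 and 1, 0 and 0, and 1 and 0 at 10, 30 and 100 mg/kg/day for 24 h, 2 and 2 with R2, and 0 and 1, 0 and 4 and 0 and 4 at 20, 100 and 30 mg/kg/day for 336 h. Replicate numbers are shared across groups, but residuals of same-numbered samples correlated over 0.1 in 2 of 18 pairs in study 1, 2 of 12 in study 2 and 0 of 4 in studies 3 and 4, so the block was not taken as a pairing. With it, Timp1 at 100 mg/kg/day for 24 h, Fn1 at U82612cds_g_at with R2, and Itgb3 and Bgn between 100 and 20 mg/kg/day did not pass. The cause of these shifts was not tested.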
